A study of Homo sapiens with 4 samples.

Results

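DNA methylation was described around the starts of 53 developmental transcription factor genes outside the HOX clusters, of 19970 protein-coding genes in all. The genes were the listed members of the PAX, LHX, NKX, TBX, IRX, OTX and DLX families together with SIX2 to SIX6. They were chosen by name as typical Polycomb targets. No methylation value entered the rule, but earlier results of these data were known when the genes were chosen. For each gene the window ran 5 kb to either side of the start of its MANE Select transcript, the reference transcript shared by the 2 main human annotations (GENCODE 44, hg38). It was split into a promoter core, within 500 bp of the start, and flanks, the rest of the window.

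Whole-genome bisulfite sequencing had been done on HUDEP-2, a human line of immortalised erythroid precursors. There were 4 libraries, 1 per group. Non-differentiated cells were untreated. The other cells went through 4 days of growth and 2 days of maturation in erythroid differentiation medium with the vehicle DMSO, a DNMT1 inhibitor or an EED inhibitor. The final DMSO concentration was 0.1%, and compounds were present from the expansion stage onward. All cultures received doxycycline, and neither the compounds' names nor their doses were given. Cells of the inhibitor groups are labelled as having increased fetal haemoglobin.

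These genes encode DNA-binding proteins that set out body axes and organs in the embryo, and most are silent in blood cells. Their starts usually lie in long CpG islands. In many cell types such islands carry little DNA methylation and are held silent by Polycomb complexes, one of which puts a repressive methyl mark on histone H3. EED is the subunit of that complex that binds the mark, and DNMT1 is the enzyme that restores CpG methylation on the new strand after DNA replication. Bisulfite changes unmethylated cytosine so that it is read as T, so the share of reads with C at a CpG is its methylation level.

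In every library a listed CpG had at least 10 reads and 27.2 to 29.7 reads on average. Of the 24426 CpGs that hg38 has in the 53 windows, 12888 had a line in each of the 4 libraries, and the values below rest on these shared CpGs. The shared CpGs made up 26.0% of the members' core CpGs and 58.0% of their flank CpGs, against 32.7% and 72.7% over all protein-coding genes. Mean coverage over the members' shared CpGs was 19.1 to 21.2 reads in cores and 20.7 to 22.1 in flanks. At least 5 shared CpGs were required, which 42 cores and 52 flanks met. The untested cores were those of PAX4, LHX1, LHX2, NKX2-5, NKX3-2, NKX6-1, TBX2, SIX4, IRX1, IRX2 and IRX3. LHX1 had no shared CpG in its whole window and has no value. With 1 library per group there is no spread between replicates, so tests compare the reads of 2 libraries, not conditions. Intervals beside levels are Wilson's at 95%. They hold the counting error alone and are too narrow even for that. The reads of a region are summed over its CpGs, so in intervals and tests a read over several CpGs counts once at each. Amplified reads that carry no molecular identifier also need not come from separate molecules. As a check of the labelled cell type, the cores of 10 erythroid marker genes had a median level of 9.9% in the DMSO library, and those of 10 marker genes of other blood lineages 47.5%, against 9.4% over all protein-coding genes. Their flank medians were 60.6% and 62.1%, so the check rests on the high cores of the other lineages' markers. The erythroid marker cores were near the value for all genes, so the check does not by itself show erythroid identity.

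The sequences just upstream of 4 of the starts show the range of CpG content and methylation among the members. Each run below is the 250 bases before the start, 5′ to 3′ on the gene's strand, from RefSeq's promoter table on hg38, with CpGs in capitals. The 4 were picked, with their values known, among the 26 of 37 members in that table whose RefSeq start was the MANE start.
DLX2: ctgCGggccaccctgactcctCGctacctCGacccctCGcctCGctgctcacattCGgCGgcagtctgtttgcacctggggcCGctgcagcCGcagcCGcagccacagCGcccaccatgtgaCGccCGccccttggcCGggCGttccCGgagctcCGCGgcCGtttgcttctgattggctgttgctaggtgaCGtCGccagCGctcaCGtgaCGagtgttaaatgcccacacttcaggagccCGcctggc
TBX18: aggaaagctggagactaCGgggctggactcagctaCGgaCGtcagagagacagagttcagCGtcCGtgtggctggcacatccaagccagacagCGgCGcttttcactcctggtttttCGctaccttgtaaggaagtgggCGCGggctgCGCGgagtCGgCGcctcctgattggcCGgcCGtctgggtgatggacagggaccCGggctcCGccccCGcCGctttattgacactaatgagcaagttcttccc
PAX3: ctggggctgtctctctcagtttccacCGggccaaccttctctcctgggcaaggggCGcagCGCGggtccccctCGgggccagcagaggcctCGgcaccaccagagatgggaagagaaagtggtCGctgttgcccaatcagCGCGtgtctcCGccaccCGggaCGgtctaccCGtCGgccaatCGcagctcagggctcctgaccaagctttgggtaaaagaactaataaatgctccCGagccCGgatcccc
TBX19: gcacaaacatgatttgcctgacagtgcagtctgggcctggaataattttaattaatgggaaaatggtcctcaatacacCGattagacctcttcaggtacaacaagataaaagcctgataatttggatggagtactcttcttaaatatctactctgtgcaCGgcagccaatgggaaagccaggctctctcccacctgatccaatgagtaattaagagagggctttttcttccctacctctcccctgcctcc

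The DLX2 run (chr2:172102901-172103150, minus strand) holds 25 CpGs, of which 24 were measured in all libraries. Its level was 0% in the non-differentiated, DMSO and EED inhibitor libraries and 0.18% in the DNMT1 inhibitor library. All 20 CpGs of the TBX18 run (chr6:84764599-84764848, minus strand) were measured, at 4.2% in non-differentiated cells, 2.2% with DMSO, 0.68% with DNMT1 inhibitor and 3.2% with EED inhibitor. The PAX3 run (chr2:222298999-222299248, minus strand) has 17 CpGs, 12 of them measured, at 19.6%, 19.0%, 8.4% and 20.5% in the same order. TBX19 (chr1:168280627-168280876, plus strand) has just 2 CpGs in its run, both measured, at 87.3%, 95.8%, 20.5% and 88.1%. These 4 ran from CpG-dense and nearly unmethylated to CpG-poor and highly methylated. Over the 42 measured cores, Spearman's rho between the level in non-differentiated cells and the observed over expected CpG content was −0.203, and 0.053 for GC content, as a description over genes of the same library. Over the 26 members whose RefSeq start was the MANE start, the same 250 bases held a median of 22.5 CpGs, against 11 over 35116 promoters. The GC box letters GGGCGG, searched on both strands, were found in the runs of 16 of these 26 and in 42.6% of all promoters in the table, and a match is not evidence of binding.

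Most of the genes had flanks that were low in methylation beside those of protein-coding genes in general. The median flank level of the 52 members was 18.8% in non-differentiated cells, against 65.7% over 19166 protein-coding genes, while the median core levels were 8.4% and 9.9%. Flanks under 20% were found in 29 of 52 members, or 55.8%, and in 1.37% of all genes. Both the core and the flanks were under 20% in 18 of the 42 members with both measured, against 1.19% of all genes. The common pattern of a core under 20% between flanks of 50% or more, seen in 49.1% of all genes, was found in 0 of the 42. The HOX genes, which are also Polycomb targets, had a median flank level of 22.7% in the same library. The 25 measured genes for Polycomb proteins themselves stood at 66.0%, near the value for all genes.

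**Figure D1:**
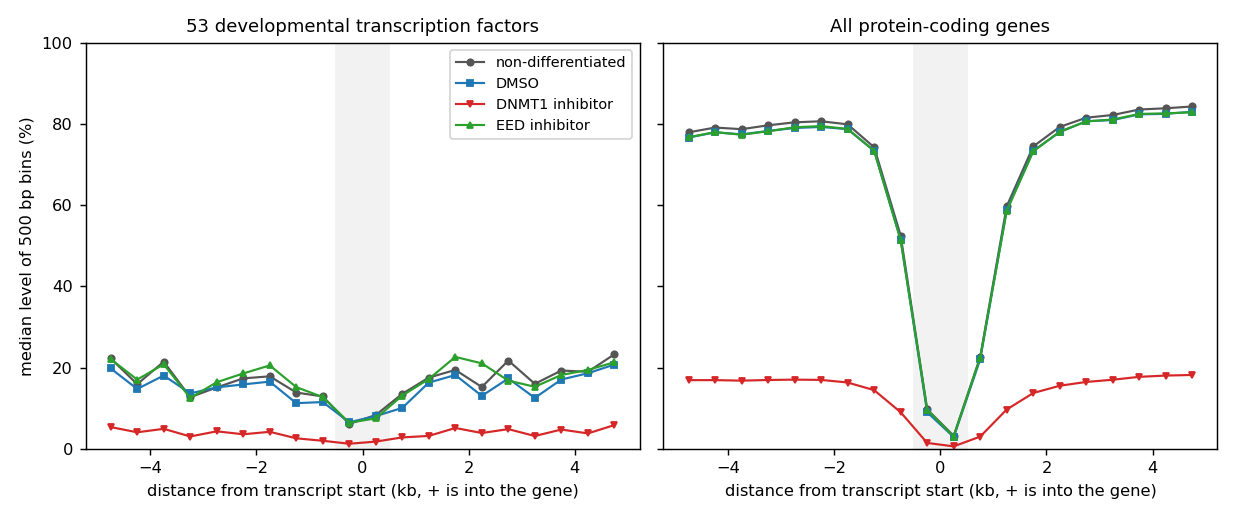
Median methylation level (%) of 500 bp bins with at least 3 shared CpGs against distance from the transcript start (kb), for the 53 developmental transcription factor genes (left) and all protein-coding genes (right). Each line is 1 library, and the grey band is the promoter core. The left profile is shallow, with bin medians from 6.1% at the start to 23.3% in non-differentiated cells, while the right profile climbs steeply from 3.2% to 84.3%.

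Along the windows, 511 of 884 tested 500 bp bins, or 57.8%, were under 20% in non-differentiated cells, against 17.1% of the bins of all genes. The counts were 536 with DMSO, 498 with the EED inhibitor and 805 (91.1%) with the DNMT1 inhibitor, against 17.3%, 17.3% and 67.2% of the bins of all genes. NKX2-2, which directs ventral neural and pancreatic islet fates, had 17 of 19 tested bins under 20% in non-differentiated cells. OTX2, a forebrain and eye factor, also had 17 of 19. DLX1, needed for forebrain interneurons, had 16 of 19, and PAX6, the eye and pancreas factor, had 16 of 17. At the other end TBX19, a pituitary factor for corticotroph cells, had no bin under 20% of its 9 tested.

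The 42 measured cores fell into 3 kinds in non-differentiated cells. In 18 genes the core and the flanks were both under 20%: PAX1, PAX2, PAX5, PAX6, PAX7, PAX9, LHX4, LHX8, LHX9, NKX2-2, TBX3, TBX5, TBX18, SIX6, OTX2, DLX1, DLX2 and DLX4. In 12 genes a core under 20% lay between flanks of 20 to 50%: TBX4, TBX15, TBX20, SIX2, SIX5, IRX4, IRX5, IRX6, OTX1, DLX3, DLX5 and DLX6. The other 12 cores were at 20% or more: PAX3, PAX8, LHX3, LHX5, LHX6, NKX2-1, NKX2-3, NKX6-2, TBX1, TBX19, TBX21 and SIX3. The cut at 20% runs through a continuous range, with NKX2-3 at 21.4% just above it and TBX4 at 18.8% just below.

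The highest core was that of TBX19, at 90.0% (interval 86.3 to 92.8) in non-differentiated cells, 93.5% with DMSO, 30.02% with the DNMT1 inhibitor and 92.4% with EED inhibitor. LHX6, a factor of forebrain interneurons and of jaw and tooth, had 73.6%, 69.1%, 22.4% and 61.4% in the same order. The core of LHX3, required for the pituitary and motor neurons, stood at 60.2%, 52.7%, 9.1% and 60.2%. NKX6-2, a factor of oligodendrocytes and ventral neurons, had 49.1%, 38.5%, 30.3% and 47.9%. In all 4 genes the DNMT1 inhibitor library was the lowest, and in NKX6-2 it was nearest to the others.

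TBX21, which encodes T-bet of T helper cells, had a core level of 36.2% in non-differentiated cells, 36.2% with DMSO, 7.4% with DNMT1 inhibitor and 37.9% with EED inhibitor. TBX1, a factor of the pharyngeal arches and heart outflow tract, stood at 32.4%, 24.0%, 9.7% and 36.4% over 6 CpGs and 68 to 77 reads, so its intervals were wide, from 22.4 to 44.2% in non-differentiated cells. These cores rest on few of the CpGs present, 10 of 94 for TBX21, 6 of 135 for TBX1, 14 of 159 for NKX6-2, 9 of 81 for LHX6 and 13 of 81 for LHX3, whereas 17 of 18 were measured in TBX19. Cores at or near 0 were found in SIX5 (0% in all 4 libraries), OTX1 (0.19 to 0.77%) and DLX1 (0 to 1.3%). In SIX5, 0 methylated of 206 DMSO reads, summed over 14 CpGs, had a Wilson upper limit of 1.83%. The limit used for a count of 0, 3 counts of those reads, came to 1.46%. Both limits are too low where a read covers several of the CpGs.

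**Figure D2:**
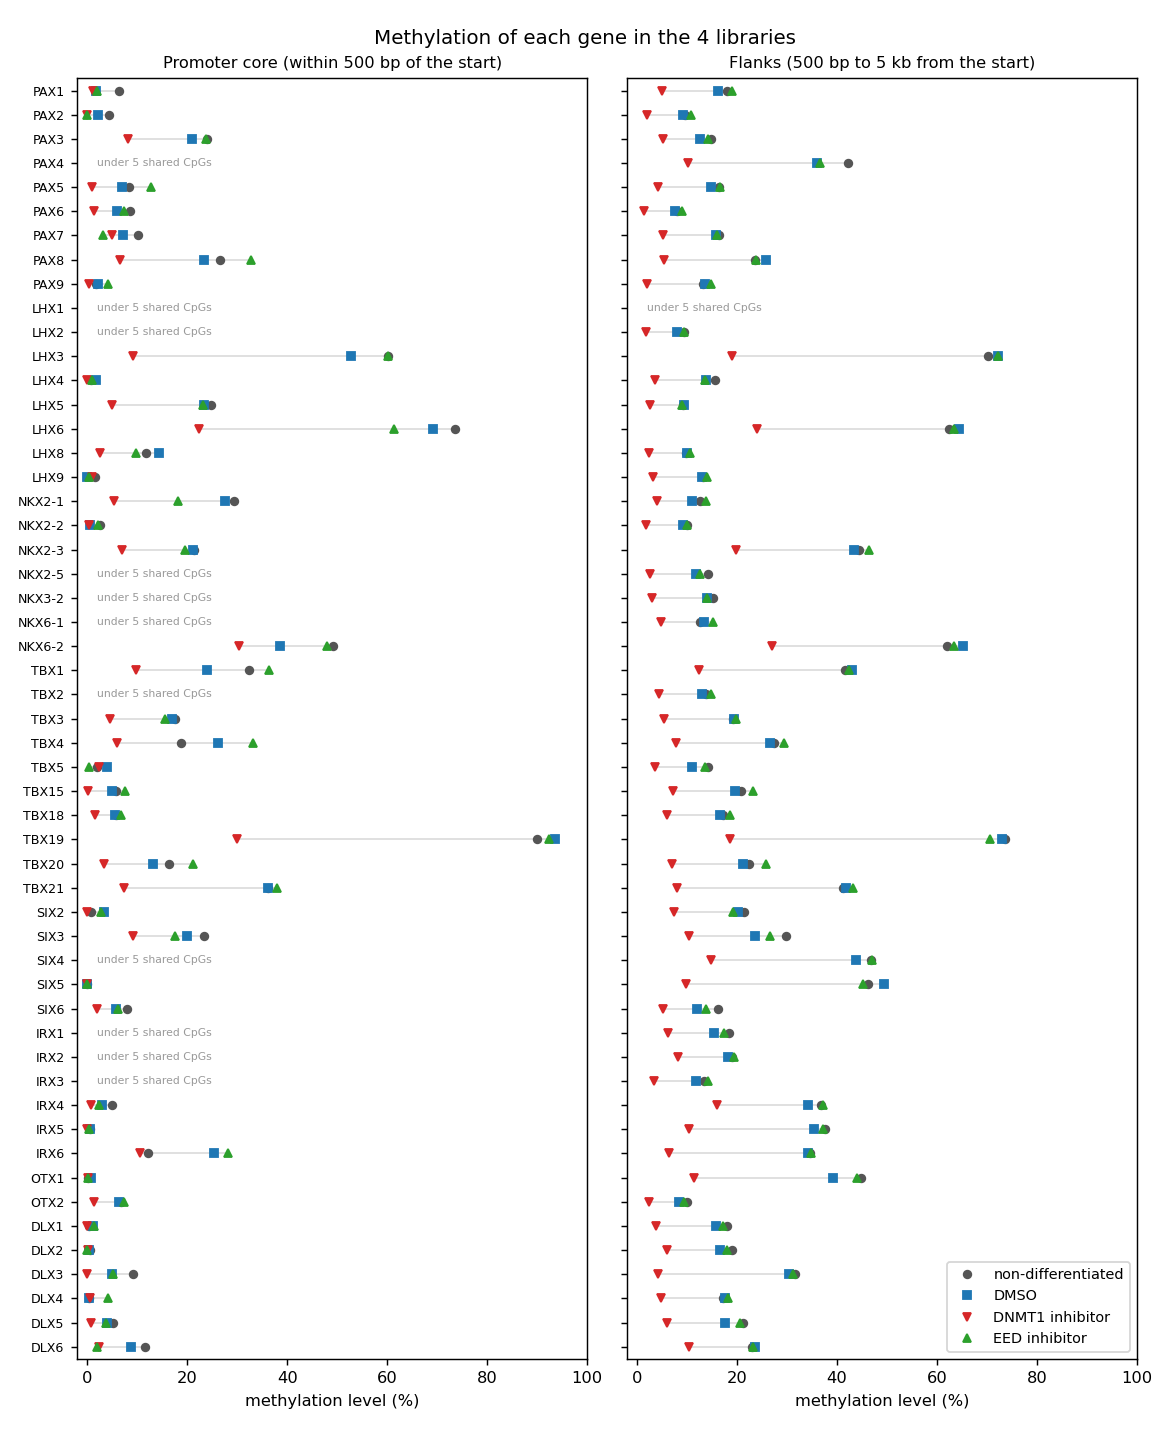
Methylation level (%) of the promoter core (left) and the flanks (right) of each of the 53 genes, with 1 marker per library and a grey line over the range of the 4. The flank markers of the DNMT1 inhibitor library lie at the left of every measured gene, and the other 3 libraries lie close together, as in TBX19 at 73.5%, 73.0% and 70.5%.

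The highest flanks belonged to TBX19, LHX3, LHX6 and NKX6-2, at 73.5%, 70.3%, 62.4% and 61.9% in non-differentiated cells, the genes that also had the highest cores. The lowest were those of PAX6 at 8.0%, LHX5 at 9.3% and LHX2 at 9.4%. Flanks were above the core in 34 of 42 members. The other 8, with a core above its flanks, were PAX3, PAX6, PAX8, LHX5, LHX6, LHX8, NKX2-1 and TBX19. LHX5, a factor of the forebrain and hippocampus, had 24.7% in the core and 9.3% in the flanks. NKX2-1, the thyroid, lung and forebrain factor, had 29.3% and 12.7%. By family the median flank level ran from 13.3% in LHX and 14.3% in NKX genes to 26.9% in IRX genes, 27.4% in the 2 OTX genes and 29.8% among SIX2 to SIX6, but each family spanned a wide range, 9.3 to 70.3% in LHX.

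Differentiation was addressed by the DMSO library against the non-differentiated one, which also differ in DMSO itself, so the 2 cannot be told apart. The pooled level over the members' flank CpGs was 23.4% in non-differentiated cells and 22.5% with DMSO, and over core CpGs 13.0% and 12.2%. That core difference of −0.75 points changed direction, to 0.077 points, with a coverage minimum of 20 reads. A gene was called when its reads differed at an adjusted p under 0.01 (two-sided Fisher's exact test, Benjamini-Hochberg over all genes) and by at least 25 points. By this rule 0 of 42 cores and 0 of 52 flanks were called in either direction. Over all genes 0% of cores were called lower and 0.0124% higher, and 0% of flanks in each direction. At an unadjusted p under 0.05 there were 7 cores and 25 flanks, against 10.8% and 29.6% of all genes. Among 500 bp bins 0 of 884 were called, against 0.00105% lower and 0.0021% higher over all genes, and 0 of 12888 single CpGs, against 0% of all shared CpGs.

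Smaller differences were present. IRX6, of the Iroquois family, had a core level of 12.2% (9.22 to 16.1) in non-differentiated cells, 25.4% (21.1 to 30.2) with DMSO, 10.7% with DNMT1 inhibitor and 28.1% with EED inhibitor. Its difference of 13.1 points between DMSO and non-differentiated cells passed Fisher's exact test with an adjusted p of 0.0028. When the reads of the region were divided by its number of CpGs it did not pass, and 0% of all cores did. That division left 13.2 to 13.5 reads per library on average, too few for a difference of this size to pass, so it decides nothing here. IRX6 was the one core past the adjusted p, alone or with a size of 10 points. Over all cores 0.198% passed the p as higher and 0.49% as lower, and 0.105% were called higher and 0.217% lower at 10 points. At that size 0 member flanks were called, against 0.0261% lower and 0.00522% higher over all genes. The next cores by size did not pass the test: TBX4 was 7.24 points higher and TBX19 3.46 points higher with DMSO, and NKX6-2, TBX1 and LHX3 differed by −10.6, −8.35 and −7.52 points.

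In the flanks 38 of 52 members were lower with DMSO than in non-differentiated cells, with a median difference of −1.003 points, close to the −1.09 points over all genes. The lowest differences were in PAX4, a pancreatic islet factor, at 42.2% and 36.0%, in SIX3, of the forebrain and eye, at 29.8% and 23.7%, and in OTX1, of the brain and inner ear, at 44.8% and 39.3%. NKX6-2, SIX5 and PAX8 differed most in the other direction, by 3.39, 3.21 and 2.13 points. Without a minimum size, 9 flanks passed the adjusted p as lower (DLX2, DLX5, IRX1, NKX2-5, OTX1, PAX4, SIX3, SIX6 and TBX5), where 7.24% of all flanks did, and SIX5 as higher, where 0.71% did. The 52 member flanks held 11857 shared CpGs and the 19166 flanks of all genes 2274913, so a member flank held more on average. With more summed reads and a lower level, a difference of equal size passed more easily in members. Shares of flanks past a p alone, here and for the EED inhibitor, were not matched for this. When the reads of a region were divided by its number of CpGs, as if all its CpGs were read from the same molecules, 0 member flanks and 0% of all flanks passed in either direction. This extreme setting left about 20.7 reads per library in the members' flanks. Differences of a few points could not pass with so few reads, so the result was fixed in advance.

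With the DNMT1 inhibitor, methylation was lower than with DMSO in all 52 measured flanks and in 39 of 42 cores. Over flank CpGs the pooled level was 22.5% (22.4 to 22.7) with DMSO and 7.04% (6.94 to 7.14) with the inhibitor, and over core CpGs 12.2% (11.8 to 12.7) and 3.67% (3.41 to 3.93). Cores called lower were those of LHX3, LHX6, TBX19 and TBX21, 4 of 42, where 28.9% of all genes' cores were called. Flanks called lower numbered 13 of 52, where 94.4% of all genes' flanks were called: PAX4, LHX3, LHX6, NKX6-2, TBX1, TBX19, TBX21, SIX4, SIX5, IRX5, IRX6, OTX1 and DLX3. No core or flank was called higher. The members' shares were below the background, and most members could not be called, since a level under 25% cannot drop by 25 points. A DMSO level of 25% or more was found in 8 member cores and 17 member flanks, against 34.7% and 97.4% of all genes. Of those members 4 cores and 13 flanks were called, and among all genes at 25% or more 83.4% of cores and 96.9% of flanks were. These shares were not matched for starting level, and the median DMSO flank over all genes was 64.5%. The flanks not called were PAX8, TBX4, IRX4 and NKX2-3, at 25.8%, 26.7%, 34.2% and 43.45% with DMSO. The cores not called were IRX6, TBX4, NKX2-1 and NKX6-2, at 25.4%, 26.1%, 27.6% and 38.5%. Several of these would have had to lose nearly all methylation to be called.

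**Figure D3:**
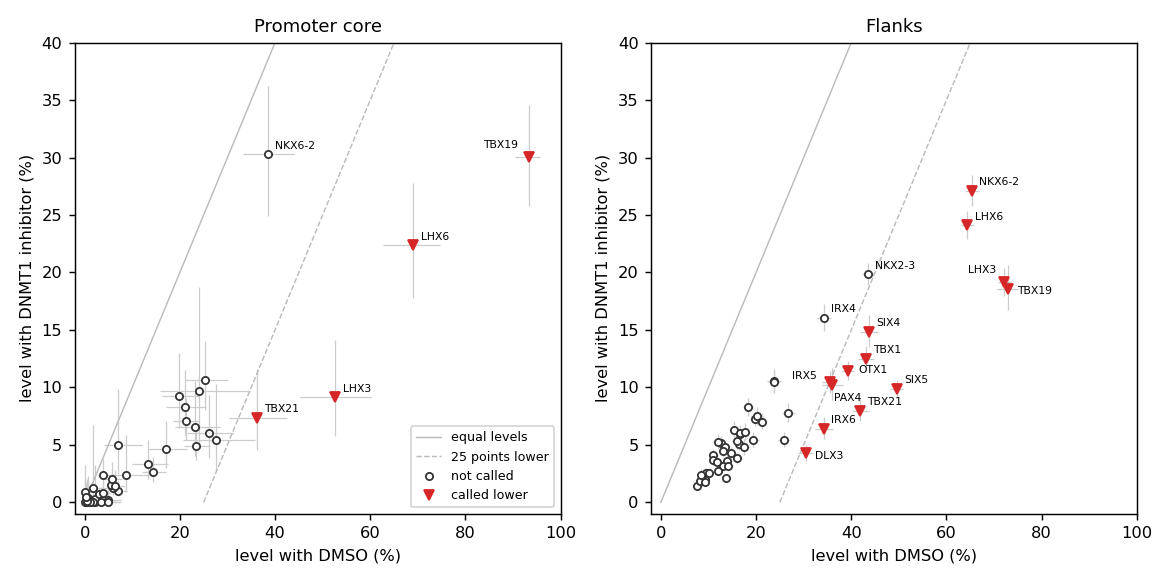
Methylation level (%) with the DNMT1 inhibitor against the level with DMSO, 1 point per gene, for the cores (left) and the flanks (right), with grey 95% Wilson intervals. The axes have different scales, the solid line marks equal levels, and the dashed line marks a drop of 25 points. Genes with the highest DMSO levels are named, and of the named cores NKX6-2 (38.5% and 30.3%) lies nearest to equal levels.

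The largest core differences were in TBX19, by −63.4 points (adjusted p = 5.9e-80, Fisher's exact test), LHX6, by −46.7 points (3.4e-25), and LHX3, by −43.5 points (3.5e-19). TBX21 differed by −28.9 points (7.8e-14). Neither LHX3 nor TBX21 was called at 20 reads, with a core of 250 bp or with reads divided by CpG number. TBX21 was not called with a core of 1000 bp either. Only 13 cores were tested at 20 reads and 25 with a core of 250 bp, so these genes may not have been tested there. In the flanks the largest were again in TBX19, from 73.0% to 18.6%, LHX3, from 72.2% to 19.1%, and LHX6, from 64.4% to 24.1%. LHX9 and DLX4 had core levels that were higher with the inhibitor, by 0.91 and 0.12 points at levels under 1%, and neither passed the test. SIX5 was at 0% in both. IRX5, at −25.0 points, and PAX4, at −25.7 points, lay just inside the size threshold for flanks, and NKX2-3, at −23.6 points, lay just outside.

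Without a minimum size, 26 of 42 cores and all 52 flanks passed the adjusted p as lower, against 61.3% and, rounded, 100% of all genes. At a size of 10 points, 14 of 42 cores and 34 of 52 flanks were called lower, against 44.8% and 99.4% of all genes. After that division of reads by CpG number, the calls were the cores of LHX6 and TBX19 and the flanks of LHX3, LHX6, TBX19 and SIX5. Without a minimum size 4.76% of member cores and 7.69% of member flanks then passed the adjusted p as lower, against 12.1% and 81.0% of all genes. The division left 20.7 reads on average in the members' flanks with DMSO and 20.9 with the inhibitor. The median DMSO flank was 17.1% in the members and 64.5% over all genes. A drop from a low level could hardly pass with so few reads, so these shares do not compare the members' loss with that of all genes. Bins of 500 bp were called lower in 211 of 884 cases, spread over 42 genes, against 77.5% of all bins, and in 443 at a size of 10 points, against 85.2%. Single CpGs were called lower at 1676 of 12888 positions, against 63.6% of all shared CpGs. None of these bins or CpGs was called higher, as were 4.3e-06% of all shared CpGs.

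The share of methylation kept, the level with the DNMT1 inhibitor as a percentage of that with DMSO, was compared among members with a DMSO level of 20% or more. It had a median of 32.1% in 13 cores and 29.1% in 21 flanks, against 24.4% and 25.1% over all genes. The NKX6-2 core kept the most, 78.6%, and LHX3 the least, 17.3%. In NKX6-2 the DMSO level of 38.5% was below the 49.1% of the non-differentiated and 47.9% of the EED inhibitor library. Its difference with the DNMT1 inhibitor did not pass (adjusted p = 0.065, Fisher's exact test). In the flanks IRX4 kept 47.0%, NKX2-3 45.6% and SIX3 44.5%, while DLX3, a factor of skin, hair and tooth, kept 14.0%. CpGs that were 80% methylated or more in non-differentiated cells kept 33.8% in the members and 30.7% over all shared CpGs. They were 8.2% of the members' shared CpGs. Those of 20 to 80% kept 31.2% and 20.2%, and those under 20% kept 25.4% and 15.1%, so the members' share was higher in each of the 3 classes. In the class under 20%, the levels were 4.58% with DMSO and 1.16% with the inhibitor in the members. Over all shared CpGs they were 6.58% and 0.99%. At levels so near 0, incomplete conversion, which could not be measured, could move the share. Split by local CpG density, with 1 to 9, 10 to 20, and 21 or more CpGs within 250 bp, the CpGs of 80% or more kept 23.5%, 34.0% and 42.4% in the members and 27.6%, 34.0% and 42.5% over all. At equal density the members' highly methylated CpGs thus kept a share close to or, in the sparsest class, below that of all CpGs, and the kept share was higher at higher density in both. The lower classes were not split by density.

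Other lists are given beside the members. For HOX genes 6 of 36 cores and 11 of 39 flanks were called lower with the DNMT1 inhibitor than with DMSO. These were 16.7% and 28.2%, against 28.9% and 94.4% of all genes. For the genes of Polycomb proteins the counts were 3 of 20 cores and 23 of 25 flanks, and for erythroid and stem cell factors such as GATA1 and TAL1 they were 1 of 13 and 12 of 18. None was called higher. The median DMSO flank was 22.1% in the HOX genes, 63.3% in the genes of Polycomb proteins and 40.9% in the erythroid and stem cell factors. As for the members, a level under 25% could not be called.

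With the EED inhibitor against DMSO, 0 of 42 cores and 0 of 52 flanks of the members were called in either direction. Over all genes 0.0062% of cores were called lower and 0.0124% higher, and 0% of flanks. An unadjusted p under 0.05 was found in 10 cores and 27 flanks, against 15.2% and 27.4% of all genes. At a size of 10 points 0 cores and 0 flanks were called, against 0.316% and 0.0417% lower and 0.608% and 0.0104% higher. Among the members' bins 0 of 884 were called, against 0.028% lower and 0.0252% higher over all genes, and 0 of 12888 single CpGs, against 0.00374% lower and 0.000623% higher. Pooled over flank CpGs the level was 22.5% with DMSO and 23.4% (23.3 to 23.6) with the EED inhibitor, and over core CpGs 12.2% and 12.6% (12.1 to 13.0). That core difference of 0.35 points changed direction, to −0.58 points with a coverage minimum of 20 reads and to −0.24 points with a core of 250 bp.

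Flanks were nonetheless mostly a little higher with the EED inhibitor than with DMSO, in 42 of 52 members, by a median of 1.27 points. Of all genes 44.7% were higher, with a median of −0.28 points, and of the HOX genes 31 of 39, with a median of 1.44 points. The comparison shares its DMSO library with that for differentiation, and in 35 of 52 members the DMSO flank was below both the non-differentiated and the EED inhibitor flank, against 38.6% of all genes. With the non-differentiated library as the reference, 29 of 52 flanks were higher with the EED inhibitor, by a median of 0.19 points, while 25.7% of all genes were higher, with a median of −1.35 points. Which library stands apart could not be settled from 1 library per group. Among genes with flanks under 20% in non-differentiated cells, 27 of 29 members, 14 of 17 HOX genes and 67.6% of 216 other genes were higher with the EED inhibitor than with DMSO, by medians of 1.41, 2.03 and 0.68 points.

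**Figure D4:**
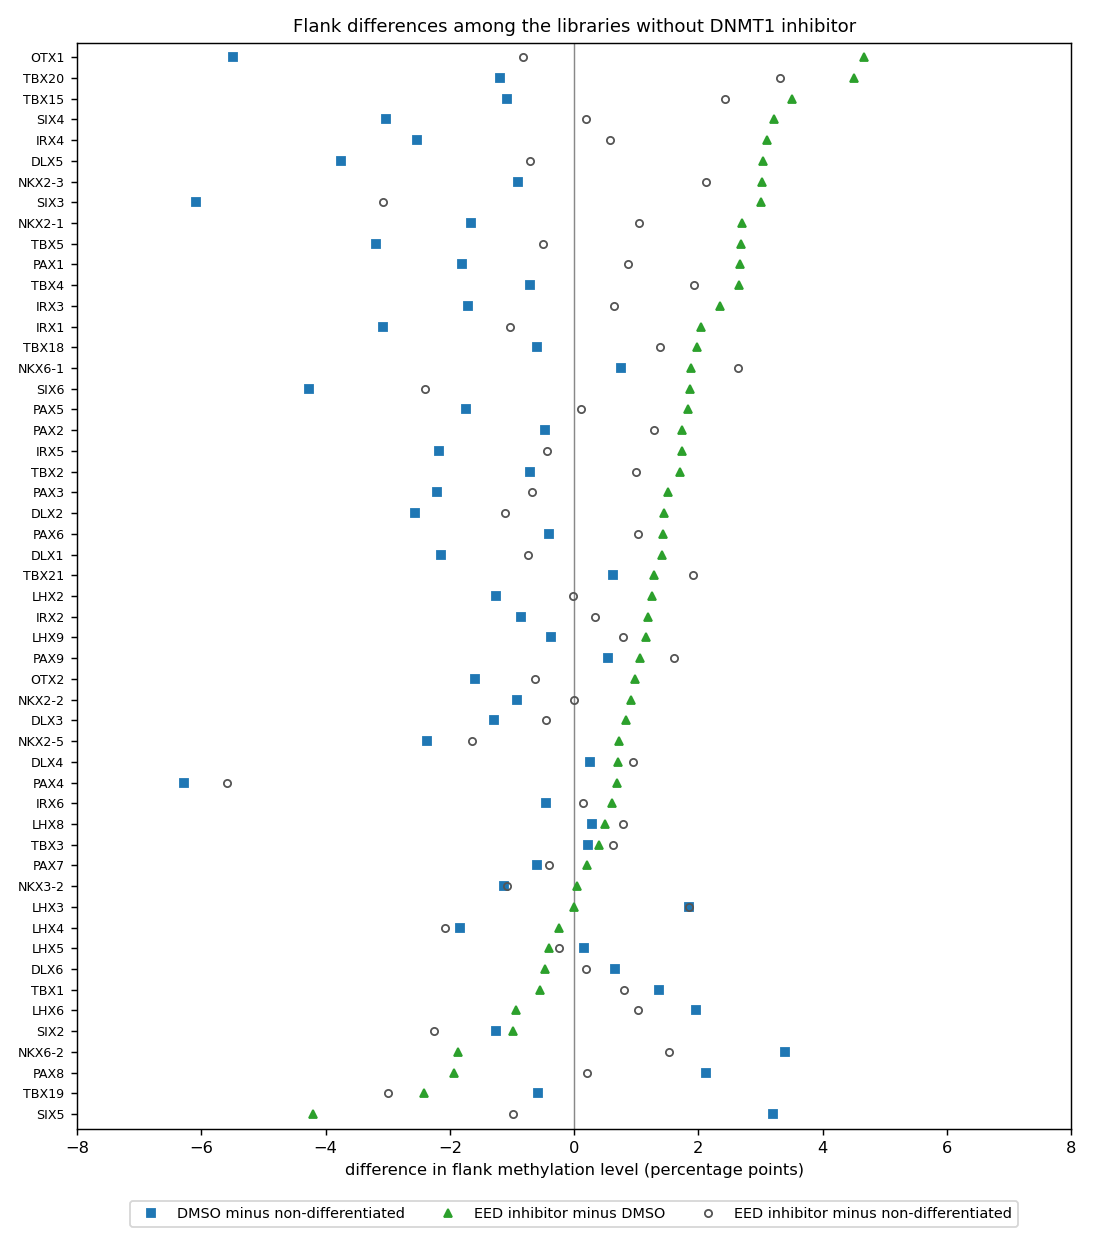
Differences in flank methylation level (percentage points) of the 52 measured genes among the 3 libraries without DNMT1 inhibitor, ordered by EED inhibitor minus DMSO. Triangles lie right of 0 in 42 genes, and squares (DMSO minus non-differentiated) lie left of 0 in 38. Open circles (EED inhibitor minus non-differentiated) lie on both sides, with 29 to the right.

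OTX1 had the largest difference, at 44.8% in non-differentiated cells, 39.3% with DMSO, 11.4% with DNMT1 inhibitor and 43.99% with EED inhibitor, so that the DMSO library was lower than both others and those were within 1 point. TBX20, a heart factor, stood at 22.4%, 21.3%, 7.02% and 25.8%, and TBX15, of skeletal and skin development, at 20.8%, 19.7%, 7.21% and 23.2%. In TBX20 and TBX15 the EED inhibitor library was also above the non-differentiated one, as in 29 of 52 members and 25.7% of all genes. The intervals for these 2 libraries were 24.6 to 26.9% and 21.3 to 23.6% in TBX20. In TBX15 they were 22.3 to 24.1% and 19.8 to 21.8%. No share of all genes with such intervals is given beside them, so they do not set these 2 genes apart. SIX5, in a window shared with DMPK and MEIOSIN, went the other way, at 46.3%, 49.5%, 9.87% and 45.3%, followed by TBX19 and PAX8, with −2.41 and −1.93 points. Without a minimum size, 9 flanks passed the adjusted p as higher (PAX1, NKX2-1, NKX2-3, TBX5, TBX15, TBX18, TBX20, OTX1 and DLX5), where 2.74% of all flanks did, and SIX5 as lower, where 4.19% did. As for differentiation, these shares were not matched for the members' larger number of CpGs per flank or their lower level. After division of the reads by CpG number, 0 passed, as did 0% of all flanks, but the few reads left could not let differences of this size pass.

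In cores the differences had no common direction, with 22 of 42 higher and 19 lower with the EED inhibitor. PAX5, the B cell commitment factor, had 8.3%, 6.93% (5.42 to 8.82), 1.01% and 12.9% (10.9 to 15.1) in the order of the groups above, an adjusted p of 0.0024 for the EED inhibitor against DMSO. TBX5, the forelimb and heart factor, had 1.99%, 3.95%, 2.35% and 0.41%, with an adjusted p of 0.00044. These were the only cores past the adjusted p without a minimum size, where 1.36% of all cores passed as higher and 0.707% as lower. After division of the reads by CpG number neither passed, and 0 of 42 member cores and 0% of all cores did. The division left 18.4 to 20.7 reads per library on average in PAX5 and 19.5 to 20.7 in TBX5. Differences of this size could not pass with so few reads. TBX1, PAX8 and NKX6-2 had larger differences, 12.4, 9.52 and 9.43 points, as did NKX2-1, LHX6 and DLX6 with −9.36, −7.62 and −6.85 points, and none of these 6 passed.

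Differences of at least 10 points were found in single 500 bp bins. With the EED inhibitor 10 member bins in 9 genes were called higher than DMSO at that size. They were 1.13% of the members' bins, where 0.207% of all bins were called. These shares were not matched for CpGs per bin or for level. In 9 of the 10, DMSO was the lowest of the 3 libraries without DNMT1 inhibitor. Only 1 member bin was called lower (0.159% of all bins). The bin of TBX15, 500 to 1000 bp into the gene (chr1:118987344-118987843), stood at 4.41% in non-differentiated cells, 1.79% with DMSO, 0.47% with DNMT1 inhibitor and 19.9% with EED inhibitor (adjusted p = 1.7e-07, Fisher's exact test). IRX4, a heart ventricle factor, had a bin 4000 to 4500 bp upstream at 9.77%, 10.3%, 4.06% and 25.4%. In both genes the EED inhibitor library stood alone above the other 3.

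The PAX5 bin of the first 500 bp of the gene had 14.3%, 12.6%, 2.12% and 26.1%, and the TBX20 bin 500 to 1000 bp upstream had 47.2%, 42.8%, 18.8% and 59.5%. IRX2, 500 to 1000 bp upstream, stood at 7.49%, 4.26%, 5.56% and 17.1%. In these 3 genes DMSO was below the non-differentiated library by less than the EED inhibitor library was above the non-differentiated one. An OTX1 bin 2500 to 3000 bp into the gene had 68.4%, 47.3%, 17.5% and 66.9%, with the EED inhibitor level below that of non-differentiated cells. The others were another bin of OTX1 and 1 each of LHX9, NKX2-3 and TBX4, with differences of 10.9 to 17.4 points. The OTX1 bin with 47.3% was also called lower in the DMSO library than in non-differentiated cells at the size of 10 points, as was 1 bin of NKX2-1, 2000 to 2500 bp into the gene, at 26.8% and 10.4%. Of all bins 0.0459% were called lower in that comparison at this size. The 1 member bin called higher there (0.0165% of all bins) lay 3500 to 4000 bp upstream of LHX8, a forebrain and tooth factor, at 7.77% in non-differentiated cells and 22.7% with DMSO. The bin called lower with the EED inhibitor was in NKX6-2, 1000 to 1500 bp into the gene, at 23.5%, 41.3%, 10.6% and 18.8%, where DMSO was the highest.

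The difference between these libraries was also taken by the level a CpG had before differentiation. Among the members' CpGs under 20% in non-differentiated cells, the pooled level was 4.58% with DMSO and 5.59% with the EED inhibitor. Those of 20 to 80% had 39.4% and 41.5%, and those of 80% or more had 88.8% and 90.1%. Over all shared CpGs the 3 classes went the other way, from 6.58% to 5.82%, from 51.9% to 50.2% and from 90.3% to 90.1%. Coverage of the whole windows with the EED inhibitor relative to DMSO, as a log2 ratio centred on the autosomal genes, ran from −0.24 in TBX21 to 0.30 in PAX2, and its part in the differences was not tested.

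Within families, the DLX genes lie in pairs less than 50 kb apart. DLX1 and DLX2 had core levels of 0.34% and 0.58% and flanks of 18.1% and 19.1% in non-differentiated cells, near each other in both. DLX5 and DLX6 had cores of 5.08% and 11.5% and flanks of 21.3% and 23.03%. DLX3 and DLX4 differed more, with cores of 9.13% and 0.43% and flanks of 31.7% and 17.3%, and DLX3 alone of the 6 had a flank called lower with the DNMT1 inhibitor. The other DLX flanks had DMSO levels of 15.9 to 23.7%, from which a drop of 25 points is not possible, and all 6 were lower past the adjusted p.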

How the data were processed

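DNA methylation was measured in 4 libraries, 1 per group. Per the labels' protocols, DNA carrying 0.5% lambda DNA was treated with bisulfite, and the Accel-NGS Methyl-Seq kit was used to build libraries. The submitters' processing notes name Trim Galore 0.6.7, cutadapt 4.1, Bismark, Bowtie2 2.1.0, methylKit and hg38, with no settings. The deposited tables hold 1 line per CpG, with strands merged and a minimum of 10 reads, a coverage count and the percent of C and of T reads, per the file headers. The percent values the authors deposited, multiplied by coverage, gave whole methylated read counts at every CpG under 1000 reads, within a tolerance of 0.05 percentage points from their rounding. Untrimmed ends, unremoved duplicates and incomplete conversion could move levels; none of them could be measured here.

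CpGs on chromosomes 1 to 22 and X listed in all 4 libraries (23269121 of 25854361) were used. A level is methylated reads over all reads of a region's CpGs. All protein-coding genes of GENCODE 44 were tested with two-sided Fisher's exact tests and Benjamini-Hochberg adjustment (Python 3.11.15, numpy 2.4.6, numba 0.67.0), needing 5 shared CpGs per region or 3 per 500 bp bin. The code was tested on simulated data. Genes with full values were mainly the extremes of core and flank level, the 3 largest differences in each direction and neighbouring pairs. Cores past the adjusted p for differentiation or the EED inhibitor were added. Members called lower with the DNMT1 inhibitor were not all given in full. Members, lists and tests were chosen with earlier results of these data known. Alternatives for coverage, CpG set, core width, thresholds and read weighting were run.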

Additional observations from a re-analysis of the deposited data

How the results depend on the processing

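Pooled core differences for differentiation and for the EED inhibitor did not keep their direction under every choice. DMSO minus non-differentiated went from −0.75 to 0.077 points with a coverage minimum of 20 reads and to −1.46 with a core of 250 bp. EED inhibitor minus DMSO went from 0.35 to −0.58 and −0.24 points under the same choices. With CpGs weighted equally, pooled flank differences were −1.19 points for DMSO minus non-differentiated (−0.93 as reported) and 1.62 for EED inhibitor minus DMSO (0.91). For the DNMT1 inhibitor, the pooled core difference of −8.56 points became −9.67 at 20 reads, −6.96 with a core of 250 bp and −10.3 with 1000 bp. Its pooled flank difference of −15.5 became −17.8 at 20 reads, −15.3 with CpGs listed in the 2 libraries compared and with a core of 250 bp, −14.6 with CpGs weighted equally and −16.0 with a core of 1000 bp.

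The 4 of 42 cores called lower with the DNMT1 inhibitor became 2 of 13 at 20 reads and 2 of 25 with a core of 250 bp. They became 2 of 42 with reads divided by CpG number, 14 of 42 at 10 points and 5 of 52 with 1000 bp. TBX19 was called under each of these and LHX6 under each but 250 bp. LHX3 was called only with 1000 bp and at 10 points, and TBX21 only at 10 points. NKX2-1 was gained with 250 bp, and TBX1 and IRX6 with 1000 bp. The tested cores changed with coverage and core width, so a core not called there may not have been tested. Of all genes' cores 28.9% were called as reported and 44.8% at 10 points, and no such share is given for the other settings. The 13 of 52 flanks became 4 with divided reads and 34 at 10 points, where 94.4% of all flanks were called as reported and 99.4% at 10 points. At 20 reads there were 15, with PAX8, NKX2-3 and TBX4 gained and DLX3 lost. With a core of 250 bp there were 10, with PAX4, IRX5 and DLX3 lost. Bins went from 211 to 443 at 10 points, and single CpGs from 1676 of 12888 tested to 731 of 3246 at 20 reads, where fewer could be tested. The share over all shared CpGs was 63.6% as reported and is not given at 20 reads. At 10 points, differentiation gained 1 core called higher, 2 bins lower and 1 bin higher, and the EED inhibitor gained 10 bins higher and 1 lower. Divided reads, chosen after seeing the data, left 0 flanks past the adjusted p without a minimum size for differentiation or the EED inhibitor (9 lower and 1 higher, and 1 lower and 9 higher, as reported), where 0% of all flanks passed, and 4 of 52 for the DNMT1 inhibitor (81.0% of all genes). The cores of IRX6 for differentiation and of PAX5 and TBX5 for the EED inhibitor did not pass either, where 0% of all cores passed. With so few reads left, the members' tested differences for differentiation and the EED inhibitor could not pass, so divided reads decide nothing about them. A drop from a low level could hardly pass for the DNMT1 inhibitor, and its 4 of 52 against 81.0% was not matched for starting level. The 42 flanks higher with the EED inhibitor than with DMSO were 40 at 20 reads, 47 with CpGs weighted equally and 29 against the non-differentiated library, while the share of all genes went from 44.7% to 43.95%, 47.5% and 25.7%. The causes of these changes were not tested. A minimum of 20 reads left 13 member cores to test. No paired analysis was possible because each group has 1 library.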
